A study of Homo sapiens with 19 samples.

Results

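Cell-cell adhesion genes are among the classical readouts of epithelial-mesenchymal transition (EMT), and 7 of them were followed here through RNA splicing, RNA level and AKAP8 binding. They were chosen by name as members of the adherens junction, the tight junction and the p120 family. They are CTNND1 (p120-catenin), CTNNB1 (β-catenin), CTNNA1 (α-catenin), JUP (plakoglobin or γ-catenin), CDH1 (E-cadherin), PKP4 (plakophilin-4, a relative of p120) and OCLN (occludin). All 7 were found among the 11998 gene symbols of the 15 splicing tables, which cover 5 event types in 3 comparisons, and they held 257 of 218798 tabulated events (0.117%).

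HMLE/Twist-ER is a line of human mammary epithelial cells immortalized with Tert that carries Twist, a transcription factor, as an estrogen receptor fusion that tamoxifen switches on. In the EPI state the cells were left untreated, and in the MES state they had received 20 nM tamoxifen until they looked mesenchymal. The RNA-seq cells all expressed a stably integrated lentiviral shRNA, either a non-specific one (control) or one against AKAP8 (knockdown, KD), so no group was free of an shRNA. There were 3 EPI control, 3 EPI KD, 3 MES control and 2 MES KD libraries, 11 of the 19 samples of the series. AKAP8 eCLIP, which maps where the protein is cross-linked to RNA, was made from UV-treated EPI and MES cells with 2 immunoprecipitated (IP) and 2 input libraries per state, and the labels of these samples name no shRNA. The labels do not say which AKAP8 shRNA was used. The methods of the study call the replicates biological.

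E-cadherin is the transmembrane protein through which epithelial cells hold on to each other. Its cytoplasmic tail binds p120-catenin close to the membrane, where p120 keeps the cadherin at the cell surface, and β-catenin or plakoglobin further along, which α-catenin ties to actin. Occludin belongs to the tight junction that seals the space between epithelial cells, and plakoglobin is also a part of desmosomes. The CTNND1 transcript can be translated from several start codons that lie in different 5′ exons, and whether those exons are spliced in sets which p120 isoforms a cell can make. Mesenchymal cells are known for the longer isoforms and epithelial cells for the shorter ones.

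The exons on which the CTNND1 results turn lie on the plus strand of chromosome 11 (GRCh37), inside the gene at chr11:57520715-57587018. A first exon ends at one of 3 donor sites, the most used of which has its last base at 57529518, and the others at 57529540 and 57529591. It can be joined to a 119 nt exon at chr11:57556509-57556627 that lies in the 5′ untranslated region, a 289 nt exon at chr11:57558857-57559145, a 72 nt exon at chr11:57561482-57561553 or a 153 nt exon at chr11:57563049-57563201. In the annotation 14 transcripts begin translation at 57558951 and 9 at 57559113, both within the 289 nt exon, and 8 begin at 57563085 within the 153 nt exon. An alternative start of the 289 nt exon gives a 180 nt form that keeps only the second of its start codons. The sequences are shown to place these start codons, which are in capitals, and each exon with a start codon is printed from the first of them to its end.
289 nt exon, chr11:57558951-57559145: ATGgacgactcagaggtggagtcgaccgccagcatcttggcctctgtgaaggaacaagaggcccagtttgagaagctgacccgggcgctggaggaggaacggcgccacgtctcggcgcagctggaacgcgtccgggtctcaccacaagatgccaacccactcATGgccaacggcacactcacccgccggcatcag
72 nt exon, chr11:57561482-57561553: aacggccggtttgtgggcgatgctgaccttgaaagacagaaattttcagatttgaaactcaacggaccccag
153 nt exon, chr11:57563085-57563201: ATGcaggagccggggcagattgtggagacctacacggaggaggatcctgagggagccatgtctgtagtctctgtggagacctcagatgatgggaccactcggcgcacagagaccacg
The 289 nt exon thus carries both upstream start codons, the 72 nt exon none that an annotated transcript uses, and the 153 nt exon the next one downstream.

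How the first exon of CTNND1 is joined to the rest differed strongly between the states. In EPI controls the most used donor mostly went to the 72 nt or the 153 nt exon, past the upstream start codons, and in MES controls more than 1 read in 2 went to the 119 nt or the 289 nt exon. The junction reads leaving this donor can be counted exon by exon, because each is the skipping junction of some tabulated event. The 3 EPI control libraries held 5, 3 and 3 reads to the 119 nt exon, 17, 20 and 11 to the 289 nt exon, 537, 563 and 479 to the 72 nt exon and 188, 151 and 162 to the 153 nt exon. The 3 MES control libraries held 290, 261 and 167 reads to the 119 nt exon, 33, 50 and 44 to the 289 nt exon, 161, 175 and 146 to the 72 nt exon and 27, 73 and 48 to the 153 nt exon. Every MES control had more reads to each of the 2 upstream exons and fewer to each of the 2 downstream exons than any EPI control. Shares were taken of the reads from this donor to the exons just named. They leave out its few reads to an exon starting at 57569205. Those were 3, 7 and 2 in the EPI controls and 3 and 8 in the MES controls of the knockdown comparison. The 119 nt and 289 nt exons together took 2.95%, 3.12% and 2.14% in EPI controls (2.73% ± 0.524, SD, n = 3) and 63.2%, 55.6% and 52.1% in MES controls (57.0% ± 5.68, SD, n = 3). Most of the MES share went to the 119 nt exon, with 48.2% ± 7.87 against 0.511% ± 0.139 in EPI (SD, n = 3 each). The share of the 72 nt exon was 73.8% ± 2.33 in EPI and 33.0% ± 2.68 in MES, and that of the 153 nt exon 23.5% ± 2.59 and 10.1% ± 4.18.

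**Figure D1:**
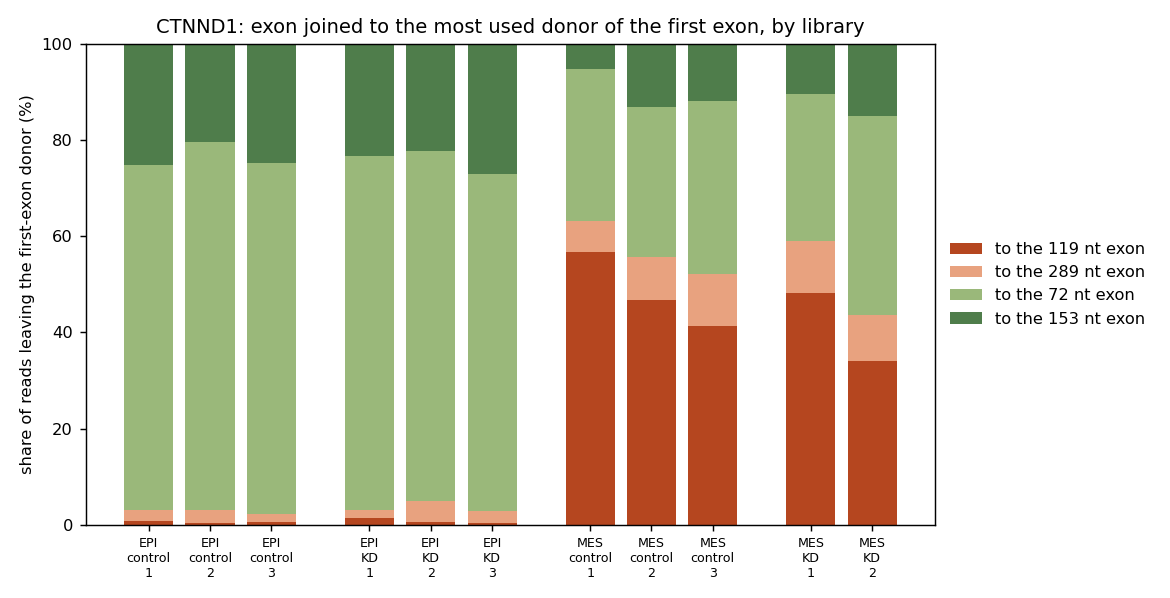
Bars give, for each RNA-seq library, how junction reads from the CTNND1 donor ending at 57529518 were shared (%) among the 119 nt, 289 nt, 72 nt and 153 nt exons. Reads to other exons are left out, and libraries stand on the x axis by group. The orange parts (119 nt and 289 nt exons) cover 2.14% to 3.12% in EPI controls and 52.1% to 63.2% in MES controls. They cover 2.91% to 4.87% in EPI KD, and 58.9% and 43.6% in MES KD, the latter below every MES control.

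The 119 nt exon ran on into the 289 nt exon. Reads joining these exons were 3, 2 and 1 in the EPI controls and 277, 251 and 153 in the MES controls, whereas reads joining the 119 nt exon straight to the 72 nt exon were 0 in every EPI control and 0, 0 and 1 in the MES controls. Reads from the 289 nt exon straight to the 153 nt exon, past the 72 nt exon, were 8, 9 and 7 in EPI and 39, 42 and 34 in MES. Reads that left the first exon by way of the 119 nt exon thus led on to the exon with the upstream start codons.

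Per event, splicing was expressed as percent spliced in (PSI), the share of junction reads, scaled by the number of junction positions, that include the variable segment. An event was called at an adjusted p under 0.05 and a PSI change of at least 10 percentage points, and between EPI and MES controls 1.59% of all 67451 tested events were called. The 1070 events behind that share became 680 without EPI control 1 and 471 with limma on the logit of PSI. Of the 94 tested EMT events of the 7 genes, 19 were called and all 19 belonged to CTNND1, which had 48 tested events. They comprised 11 skipped exons (SE), 4 pairs of mutually exclusive exons (MXE) and 4 alternative donor sites (A5SS). They share junction reads and describe the same switch from several sides, so they are not 19 separate changes.

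Inclusion of the 119 nt exon between the donor at 57529518 and the 289 nt exon was 19.0%, 11.1% and 15.4% in the EPI controls and 89.6%, 83.7% and 78.4% in the MES controls. All MES libraries were far above all EPI libraries, a rise of 68.7 points (SE 3.95, adjusted p = 4.5e-11). Inclusion of the 289 nt exon between the same donor and the 72 nt exon was 5.87%, 10.8% and 4.87% in EPI and 48.8%, 43.7% and 42.4% in MES. It rose by 37.8 points (SE 2.67, adjusted p = 3.9e-39), again without overlap. Measured up to the 153 nt exon in place of the 72 nt exon, the same 289 nt exon went from 6.23%, 8.76% and 5.26% to 57.1%, 38.7% and 44.8%, a rise of 40.1 points (SE 5.53, adjusted p = 3.2e-17). The events tabulated for the 180 nt form from this donor were called as well, but they hold no read from the donor into the start of that form in any EPI or MES control, only reads that leave the end it shares with the 289 nt exon.

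The inclusion reads of the 289 nt exon count those from it to the next exon, which are the same whatever exon came before, so these events do not tell by which donor or exon it was reached. The junctions from the other donors straight to the 289 nt exon held few reads in both states. From the donor at 57529591 there were 2, 6 and 1 in EPI and 2, 1 and 5 in MES, and from the donor at 57529540 there were 0 in each EPI control and 1, 0 and 0 in MES. The tabulated rises of this exon from these donors, of 69.3 points from 57529591 up to the 153 nt exon and 37.6 points from 57529540 up to the 72 nt exon, therefore rest on reads that leave the exon and on fewer skipping reads. Both were called (SE 3.20 and 9.31, adjusted p = 1.4e-08 and 6.4e-08), the second of them not with a replicate block (adjusted p = 0.061). The donor at 57529591 shared in the use of the 119 nt exon. Between this donor and the 72 nt exon, inclusion reads of the 119 nt exon were 0 in each EPI control and 14, 19 and 16 in MES, against 117, 180 and 150 skipping reads in EPI and 28, 35 and 39 in MES. Its PSI rose by 19.5 points (SE 1.28, adjusted p = 1.5e-13). The 119 nt exon as tabulated between the donor at 57529518 and the 72 nt exon went from 0.463%, 0.266% and 0.312% to 47.4%, 42.7% and 36.5%. These last values understate the use of the exon, because one of the inclusion junctions counted, from the 119 nt to the 72 nt exon, is almost unused.

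The 4 called donor events, joined to the 119 nt or the 289 nt exon, fell in the same comparison, while the 6 joined to the 72 nt or the 153 nt exon differed by -3.97 to 16.3 points and were not called. The share of the longer first exon, ending at 57529540, among forms tabulated as joined to the 119 nt exon was 93.7%, 96.6% and 95.1% in EPI and 15.8%, 11.5% and 17.9% in MES, so that it fell by 80.1 points (SE 2.06, adjusted p = 2.3e-43), the largest change in any of the 94 events. Its EPI values do not show that the longer donor was joined to the 119 nt exon. The inclusion reads of this event in EPI, 90, 102 and 71, are the same as those of the event joined to the 289 nt exon, and the donor at 57529540 had 0 reads to the 289 nt exon in each EPI control. They are reads that cross the end of the shorter form within the first exon, whatever exon follows. In MES the event had 66, 41 and 44 inclusion reads, each fewer than in any EPI control. Of these, 3, 1 and 1 did join the donor at 57529540 to the 119 nt exon, and the rest were such crossing reads. The larger difference was on the other side of the event, the 5, 3 and 3 reads in EPI against 290, 261 and 167 in MES from the shorter form to the 119 nt exon.

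The 72 nt exon itself behaved otherwise. Between the donor at 57529518 and the 153 nt exon its inclusion was 76.2%, 81.0% and 76.0% in EPI and 89.9%, 80.9% and 83.7% in MES, with overlap between the states, and it was not called (7.10 points, SE 3.14, adjusted p = 0.357). After the 289 nt exon it was 97.6%, 97.7% and 97.3% in EPI and 88.6%, 88.8% and 88.4% in MES. That is a difference of -8.97 points on a very small spread (SE 0.168, adjusted p = 4.9e-05), under the cutoff of 10 points.

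None of the other 6 genes had a called splicing event between the states. The largest EMT difference of each, by the rule of naming 1 event per gene, lay between 1.09 and 9.89 points in size. PKP4 came nearest, with an exon at chr2:159389692-159389828 used in place of one at chr2:159433783-159433895 in 40.6%, 42.0% and 42.3% of EPI and 28.0%, 27.3% and 39.9% of MES controls (change -9.89 points, SE 4.12, adjusted p = 0.124). The third MES control stood near the EPI libraries, and without it the change was -13.97 points and passed the test. For JUP the retention of an intron near the end of the gene was 43.7%, 42.7% and 42.4% in EPI and 34.4%, 38.8% and 35.1% in MES controls, a separation of -6.86 points that was not called (SE 1.41, adjusted p = 0.536). For OCLN the largest difference was 7.62 points, for CTNNA1 3.52, for CDH1 1.53 and for CTNNB1 -1.09, with adjusted p-values of 0.805, 0.131, 0.699 and 0.841. The OCLN value rests on 8 to 12 reads of the 679 nt exon in each MES library, and OCLN has a near-identical partial copy elsewhere in the genome that could take some of its reads.

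**Figure D2:**
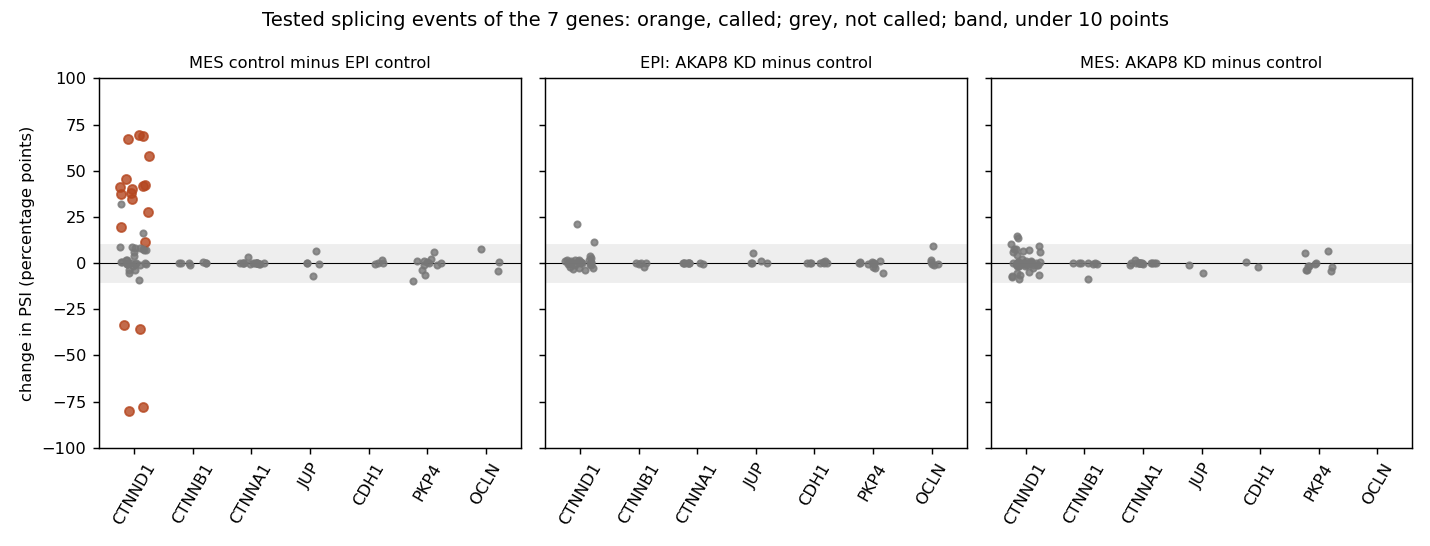
Each point is a tested splicing event of one of the 7 genes (x axis) and the y axis is its change in PSI in percentage points, for MES control minus EPI control and for AKAP8 KD minus control in each state, with orange for called events and a grey band for changes under 10 points. The called events are the 19 of CTNND1 in the EMT panel, from -80.1 to 69.3 points, and OCLN has no tested event in the MES panel.

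Gene levels were followed as summed SE junction reads, scaled between libraries. These values cover genes with an SE event, are not divided by length and move somewhat with splicing, so they are compared between libraries and not between genes. For CDH1, JUP and OCLN the level rests on the reads of 1 SE event each. It rests on 3 events for CTNNB1, 6 for PKP4, 9 for CTNNA1 and 16 for CTNND1. A gene was called at a change of at least 2-fold and an adjusted p under 0.05 (limma). Of the 9014 genes tested, 12.5% were called between EPI and MES controls, 7.16% lower and 5.38% higher. Of the 7 genes 3 were called, all of them lower in MES, and the other 4, among them each catenin except plakoglobin, were not.

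The level of CDH1, the cadherin itself, was 1251, 1794 and 1554 scaled reads in EPI controls and 41.2, 118 and 83.3 in MES controls. Each MES library was far below each EPI library, and CDH1 fell by 4.34 on the log2 scale (SE 0.31, adjusted p = 8.3e-07), 20.2-fold. OCLN, the tight junction member, had 199, 224 and 208 scaled reads in EPI and 9.80, 24.5 and 19.0 in MES, a fall of 3.58 (SE 0.36, adjusted p = 1.5e-05). JUP had 1844, 2717 and 2070 against 311, 440 and 429 and fell by 2.49 (SE 0.25, adjusted p = 1.5e-05). In whole-culture RNA, fewer cells that express a gene and less RNA per cell cannot be told apart.

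PKP4 was lower in every MES control, with 1081, 1407 and 1586 scaled reads against 1908, 1928 and 1984 in EPI. The change was -0.53 (SE 0.15, adjusted p = 0.0237), under the 2-fold cutoff. CTNND1 had 9949, 12028 and 10466 scaled reads in EPI controls and 8711, 9314 and 7567 in MES controls (log2 change -0.34, SE 0.16, adjusted p = 0.142). The groups did not overlap, but the change in level was far smaller than the exchange of its 5′ exons. For CTNNB1, which links the cadherin tail to α-catenin, the change was -0.23 (SE 0.13, adjusted p = 0.225), and for CTNNA1, the link to actin, -0.14 (SE 0.16, adjusted p = 0.577).

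**Figure D3:**
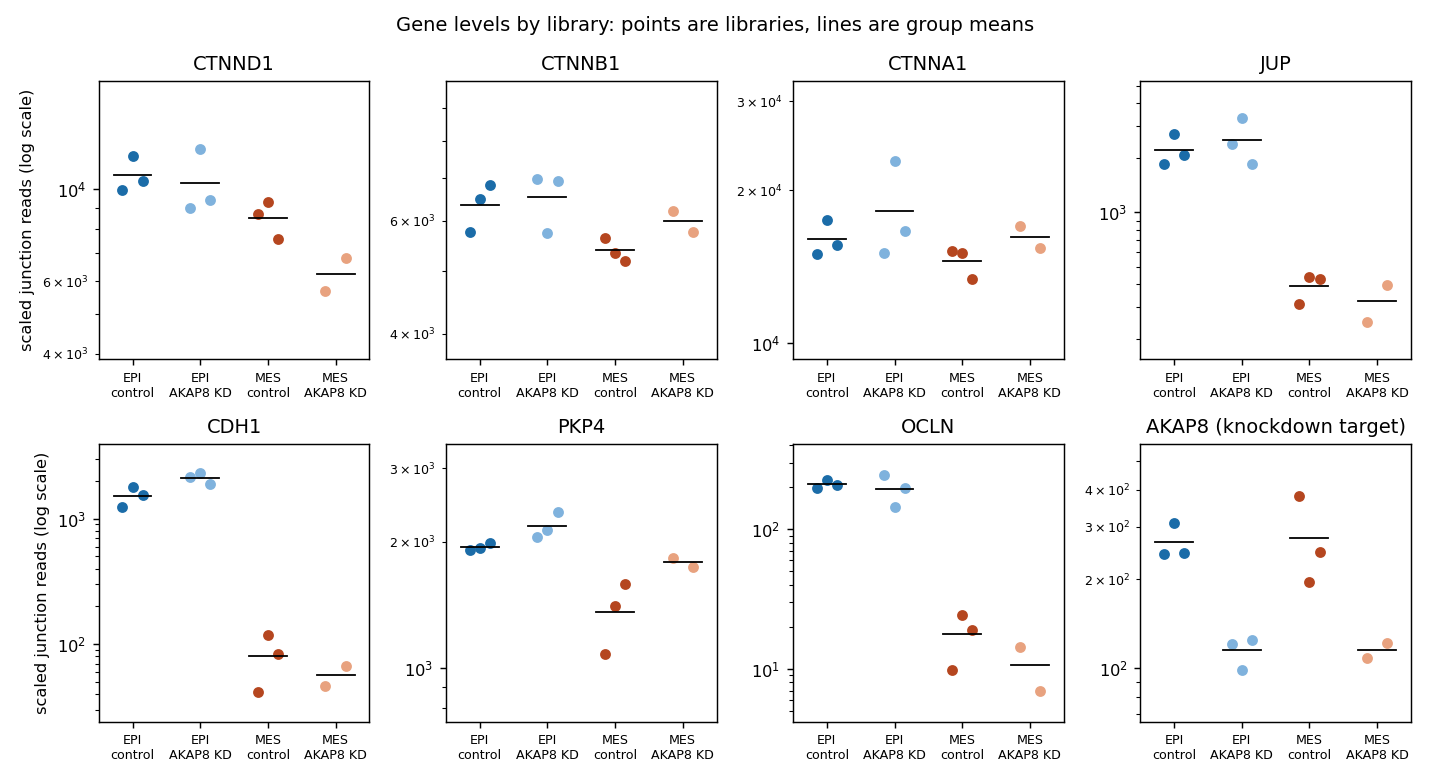
Points are RNA-seq libraries and lines group means of scaled summed junction reads (y axis, log scale, a range of its own for each gene) for the 7 genes and for AKAP8, by group on the x axis. CDH1, OCLN and JUP are lower in all MES than in all EPI libraries, whereas CTNNB1 and CTNNA1 stay within a narrow range.

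Other adherens junction genes went in both directions, and tight junction genes that were called all fell. Of 17 other adherens junction genes with a value, from a list of 30, 5 rose and 2 fell (median log2 change -0.13, against 0.01 over all genes). CDH11, a cadherin of mesenchymal cells, rose by 7.34, the nectins PVRL3 and PVRL4 rose by 4.71 and 1.54 and the receptor phosphatase PTPRM by 1.5, while P-cadherin (CDH3) fell by 3.33 and ARVCF, a p120 relative, fell by 1.27. Of 14 tight junction genes with a value, from a list of 36, 0 rose and 3 fell (median -0.30). These were LSR, a protein of tricellular contacts (-3.31), the scaffold INADL (-2.49) and the occludin relative MARVELD2 (-1.37).

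Most desmosome genes, whose products plakoglobin helps to anchor, fell. Of 7 with a value, from a list of 12, 6 fell and 0 rose (median -1.83), with changes of -2.60 for PKP3, -2.21 for DSG3, -2.11 for DSC2 and -1.83 for PKP2. The cell state markers went with the labels. All 5 epithelial markers with a value, of 10, fell, from -5.08 for RAB25 to -3.33 for CDH3, and all 8 mesenchymal markers with a value, of 9, rose, from 1.06 for QKI to 7.34 for CDH11. The summed level of the 5 epithelial markers, of which CDH3 was the most abundant, was 12829, 16322 and 13428 scaled reads in EPI controls, 14214, 18561 and 12644 in EPI KD, 661, 1224 and 1422 in MES controls and 539 and 1003 in MES KD, so all EPI libraries lay far above all MES libraries. CDH1 and CDH3 stand in the epithelial list as well, and CDH11 in the mesenchymal one. None of the 7 listed markers of blood, endothelium and melanocytes had a value.

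**Figure D4:**
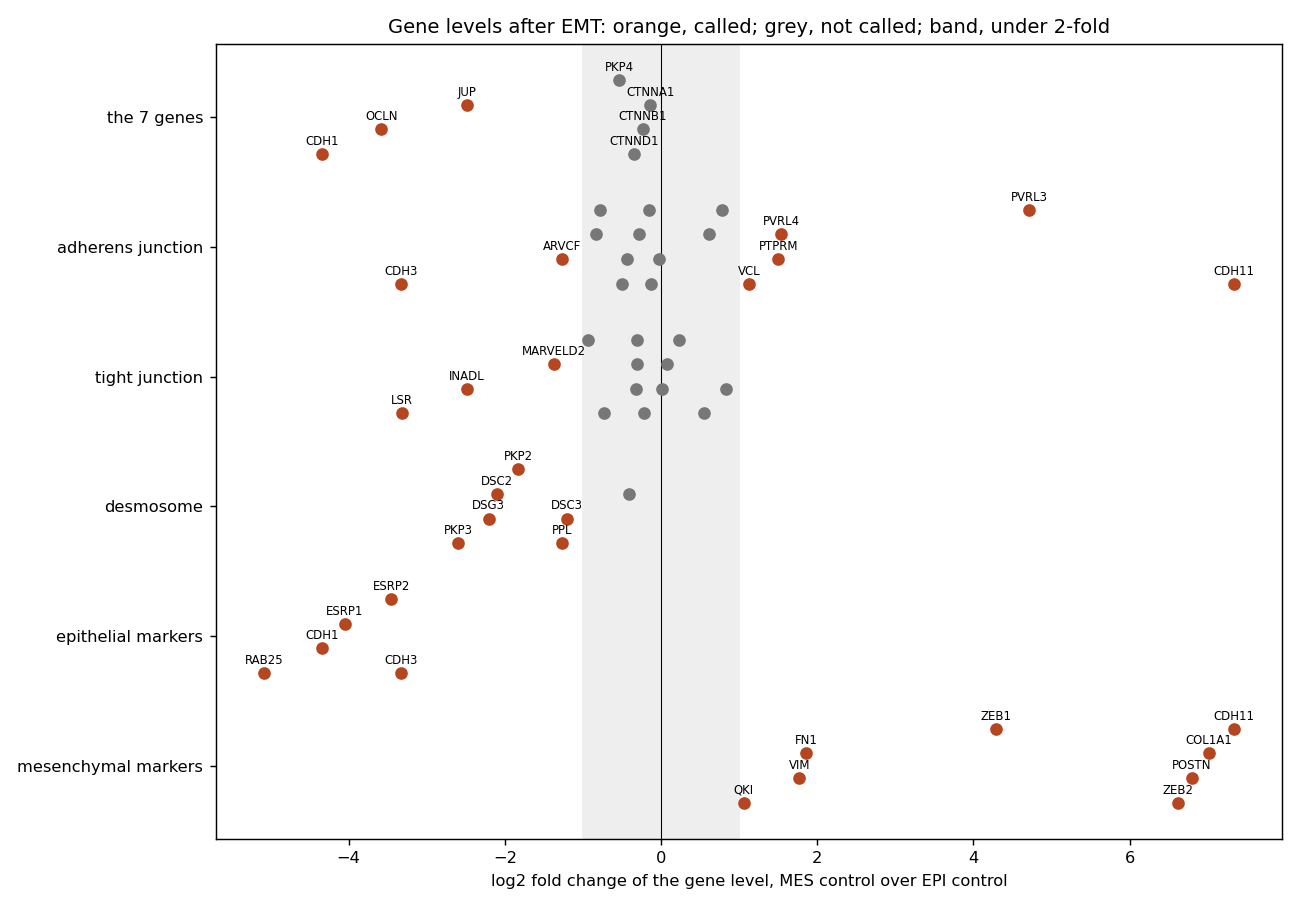
Points are genes and the x axis is the log2 fold change of the gene level, MES control over EPI control, for the 7 genes and 5 lists (y axis, with vertical offsets inside a list for legibility), orange for called and grey for uncalled genes, with a band for changes under 2-fold. CDH1, OCLN and JUP lie at -4.34 to -2.49 beside the desmosome and epithelial genes, and CTNND1, CTNNB1, CTNNA1 and PKP4 lie inside the band.

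The genes most alike to each member were taken from the 9014 genes over the 11 libraries, as a description, since the libraries share conditions and most of the likeness of CDH1, JUP and OCLN is their difference between the states. CDH1 was most like FAT2 (r = 0.995), PROM2 and KRT15. JUP was most like CDH3 (r = 0.996), DDR1 and TMEM40, and OCLN like PRRG4 (r = 0.988), ESRP1, an epithelial splicing factor, and GRAMD2. CTNND1 was most like CD82 (r = 0.987), PKM and PREP, CTNNA1 like MFN2 (r = 0.969), OSBP and EIF3D, PKP4 like TBC1D4 (r = 0.954), RAET1E and DAPK2, and CTNNB1 like KIAA0368 (r = 0.906), RASEF and TTC8.

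AKAP8, the knocked-down gene, was lower in every KD library than in any control. It had 244, 310 and 245 scaled reads in EPI controls, 121, 98.8 and 125 in EPI KD, 382, 196 and 248 in MES controls and 108 and 122 in MES KD. The log2 change was -1.20 in both states (SE 0.25 and 0.28), with an adjusted p of 0.0664 in EPI and 0.0322 in MES. It was called in MES only, while the difference between the changes of both states was 0.01 (SE 0.37, adjusted p = 0.996), with 0.0111% of all genes called for such a difference. The MES call was lost without EPI control 1, MES control 1, MES control 3, MES KD 1 or MES KD 2 (log2 change -1.28 to -0.93, adjusted p 0.0559 to 0.179).

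In EPI cells no splicing event of the 7 genes was called after AKAP8 knockdown, of 74 tested, with 0.0492% of all 65008 events called. That share rests on 32 events, which became 18 without EPI control 1, 20 without EPI KD 3, 21 without EPI control 2 and 115 without EPI KD 1. At an unadjusted p under 0.05, whatever the size of the change, there were 10 of the 74 (13.5%), 7 of them in CTNND1, where events share junction reads. Of the 74 differences, 72 were under 10 points. Over all events, 0.995% had such a p together with a change of at least 10 points. That is a stricter count, so it cannot be set beside the 13.5%. The largest was again in the 5′ part of CTNND1, in the inclusion of the 289 nt exon as tabulated between the donor at 57529591 and the 153 nt exon. It was 25.0%, 22.4% and 18.2% in controls and 48.8%, 36.0% and 44.0% in KD. The groups did not overlap, but the libraries held only 8 to 27 inclusion and 11 to 26 skipping reads, and the difference of 21.1 points was not called (SE 4.24, adjusted p = 0.711). Most of the inclusion reads, 8, 9 and 7 in controls and 16, 16 and 21 in KD, joined the 289 nt to the 153 nt exon, whatever came before, and 2, 6 and 1 in controls and 5, 11 and 1 in KD came from this donor. At the most used donor the KD libraries looked like the controls, with 2.96%, 4.87% and 2.91% of reads to the 119 nt or 289 nt exon (3.58% ± 1.12, SD, n = 3) against 2.73% ± 0.524.

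The remaining members differed by less than 10 points in EPI. The OCLN exon of 679 nt was used in place of its neighbour in 44.1%, 42.2% and 48.2% of controls and 53.9%, 64.4% and 44.6% of KD, with overlap (9.51 points, SE 5.98, adjusted p = 0.683). For JUP an exon at chr17:39919235-39919573 was used in place of its neighbour in 55.4%, 55.1% and 56.7% of controls and 57.4%, 65.5% and 60.5% of KD (5.42 points, SE 2.40, adjusted p = 0.485). The largest differences of PKP4, CTNNB1, CDH1 and CTNNA1 were -5.34, -2.27, 1.17 and -0.287 points.

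In MES cells no event was called either, of 81 tested, with 0.054% of all 59288 events called. The 32 events behind that share became 9 without MES control 1, 13 without MES control 2, 241 without MES KD 1 and 54 with a replicate block. Of the 7 genes there were 4 of the 81 at an unadjusted p under 0.05, whatever the size of the change (4.94%), 3 of them in CTNND1. Of the 81 differences, 78 were under 10 points. Over all events, 1.25% had such a p together with a change of at least 10 points, a stricter count that cannot be set beside the 4.94%. OCLN had 2 tabulated events in MES, neither with enough reads to test. A single event passed the adjusted p but not the 10 points. It was an alternative acceptor of CTNNB1, at chr3:41281151 for the longer and chr3:41281310 for the shorter form of an exon that ends at 41281934. The longer form made up 56.8% and 57.0% in controls and 46.0% and 50.4% in KD, a separation of -8.72 points (SE 2.18, adjusted p = 8.1e-06) on 3100 to 3430 reads per library. The third MES control, in the EMT tables, had 53.2%, between the other controls and the KD libraries. In EPI the same acceptor gave 55.3%, 55.3% and 59.7% in controls and 48.5%, 58.5% and 56.4% in KD, with overlap (-2.27 points, SE 3.37, adjusted p = 0.85).

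For CTNND1 the largest MES difference was in the donor events described above, and it was not called. The longer first exon ending at 57529591, as tabulated against the form joined to the 119 nt exon, made up 17.6% and 14.6% in controls and 26.4% and 35.4% in KD (14.8 points, SE 4.74, adjusted p = 0.0649). The third MES control, which stands in the EMT tables only, had 24.6%, close to the first of the KD libraries. The share of the 119 nt and 289 nt exons at the most used donor was 58.9% and 43.6% in the MES KD libraries, which overlaps the 63.2%, 55.6% and 52.1% of the 3 MES controls. The largest MES differences of the other members were 6.40 points for PKP4, -5.25 for JUP, -1.85 for CDH1 and 1.72 for CTNNA1, each uncalled. The difference between the knockdown changes of the 2 states was tested for 36 SE events of the 7 genes and called for 0, with a lowest adjusted p of 0.775, against 0.00993% of all 30197 SE events tested.

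No gene level of the 7 was called after knockdown in either state, against 0.189% of all genes in EPI (0.111% lower, 0.0777% higher) and 2.27% in MES (1.18% lower, 1.1% higher). In EPI the called genes numbered 17, and 33 with the libraries paired by a replicate block, again with 0 of the 7. CDH1 had 2153, 2317 and 1881 scaled reads in EPI KD, each above each control, but the change of 0.48 was not called (SE 0.31, adjusted p = 0.711; with the block SE 0.23, adjusted p = 0.436). In MES KD it had 46.0 and 66.9, within the control range (-0.41, SE 0.35, adjusted p = 0.519). The difference between these changes was -0.89 (SE 0.47, adjusted p = 0.789). CTNND1, at 5663 and 6820 in MES KD, lay below its 3 MES controls (-0.45, SE 0.18, adjusted p = 0.164), and PKP4, at 1827 and 1743, above them (0.41, SE 0.17, adjusted p = 0.186). OCLN, with 14.4 and 6.99 in MES KD, differed by -0.67 (SE 0.41, adjusted p = 0.36), and JUP, with 247 and 399, by -0.31 (SE 0.28, adjusted p = 0.555). CTNNB1 and CTNNA1 differed by at most 0.16 in size in either state. These are uncalled values from 2 or 3 libraries a group, and they do not show that the levels were the same.

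Of the listed junction genes none was called in EPI after knockdown. In MES the adherens junction gene VEZT fell by 1.18 (adjusted p = 0.0271) and the desmosome genes PPL and DSG3 fell by 2.06 and 1.03 (adjusted p = 0.0186 and 0.0226), while 0 of 14 tight junction genes were called. Of the state markers RAB25 fell by 1.41 in MES (adjusted p = 0.0315) and 0 of 8 mesenchymal markers were called. The EPI controls are the same libraries in the EMT and EPI comparisons, and the MES controls in the EMT and MES comparisons, so their changes are not independent.

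AKAP8 peaks over these genes passed the thresholds in EPI cells and not in MES cells. Peaks were counted where the IP exceeded the input by a log2 of at least 2 at a -log10 adjusted p of at least 3. In EPI there were 53 such peaks on 5 of the 7 genes, of 21665 in all (0.245%), and in MES 0 of 26228. Over all 10804 genes in the splicing tables with an annotated position, 18.7% had at least 1 peak in EPI and 11.6% in MES. JUP, CDH1 and OCLN, with 34, 6 and 4 of the 53, were also the members whose level fell in MES, and the part of their RNA level in the peak counts was not tested. CTNNB1 and CTNNA1, with 5 and 4 EPI peaks and little change in level, had none in MES either, apart from a CTNNB1 peak at a log2 of 1.70 under the threshold. The peaks come from 1 list per state in which the authors had merged both replicates, so they carry no replicate spread.

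JUP held 34 of the 53 peaks. They overlapped into 23 separate blocks that cover 1595 bases between 384 and 16040 bases from the gene start, 31 of the 34 in introns, with a log2 of 2.38 to 5.0 (median 3.61). With 105 peaks per 100 kb, against 2.21 over all genes, JUP ranked 111 of 10804 genes by number of peaks. CDH1 had 6 intronic peaks from 492 to 23548 bases from its start. The 3 nearest lay 474, 427 and 339 bases before an exon of CDH1 at chr16:68772200-68772314, whose inclusion was 97.3% to 100% in all EPI and MES controls. CTNNB1 had 5 peaks within 5074 to 5351 bases from its start, OCLN 4 within 443 to 691 and CTNNA1 4 in a noncoding exon 142704 to 143069 bases from its start. The 4 CTNNA1 peaks were below a -log10 adjusted p of 5, so that at this stricter threshold 4 of the 7 genes had a peak. CTNND1 and PKP4 had no peak in either state, so none of the CTNND1 exons that changed had a peak in or near it.

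**Figure D5:**
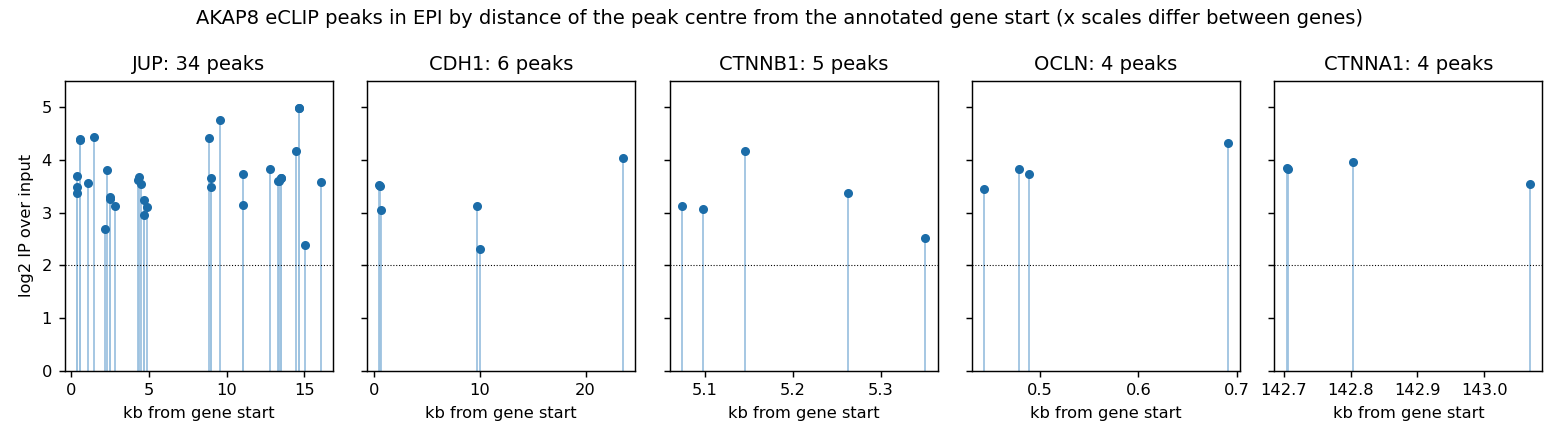
Each point is an AKAP8 peak in EPI cells, with the distance of its centre from the annotated gene start on the x axis (kb, a scale of its own for each gene) and the log2 of IP over input on the y axis, and the dotted line marks the threshold of 2. JUP carries 34 peaks along its first 16 kb, CDH1 6, CTNNB1 5, OCLN 4 and CTNNA1 4, and no peak of these genes passed in MES cells.

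The strongest intronic peak of each of 4 genes is printed on the strand of the transcript (GRCh37), because the peaks of all 5 genes share runs of G, which are in capitals where 3 or more stand together.
JUP, chr17:39928490-39928558, minus strand: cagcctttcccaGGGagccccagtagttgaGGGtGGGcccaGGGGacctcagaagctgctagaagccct
OCLN, chr5:68788780-68788840, plus strand: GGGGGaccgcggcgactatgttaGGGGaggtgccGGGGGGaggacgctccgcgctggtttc
CTNNB1, chr3:41241366-41241391, plus strand: gcgctgcctctctGGGGccctGGGGG
CDH1, chr16:68794684-68794803, plus strand: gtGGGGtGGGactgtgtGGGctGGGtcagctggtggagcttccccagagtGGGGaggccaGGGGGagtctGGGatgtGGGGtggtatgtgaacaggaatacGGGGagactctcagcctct
These peaks had a log2 of IP over input of 5.0, 4.32, 4.18 and 4.04, which is 31.9-fold, 19.9-fold, 18.1-fold and 16.4-fold. The strongest CTNNA1 peak, at chr5:138089402-138089516, had a log2 of 3.96. The letters GGG were found on the transcript strand in the 100 bases around the centre of all 53 peaks. That does not set these genes apart, since 99.9% of all EPI peaks and 99.6% of all MES peaks hold GGG in a window of the same length. Longer runs contain shorter ones and each run was counted once.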

How the data were processed

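RNA-seq of 11 libraries and AKAP8 eCLIP of 2 IP and 2 input libraries per state were used. Per the labels, libraries were stranded, paired-end and poly(A)-selected, and STAR, featureCounts 1.5.0 and DESeq2 are named in the processing notes of the submitters with the GRCh37 build. The authors deposited 15 rMATS tables (junction reads of inclusion and skipping, listed library by library in 1 field per group) and 1 merged peak list per state, with a log2 of IP over input and a −log10 adjusted p for each peak as the authors computed them. The authors' own p-values and PSI differences in the splicing tables, and their gene table of fold changes and p-values, were not used, nor were 30 columns of PSI values per library. SE junction reads per library came to 31258177 to 40852217.

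PSI was computed from the deposited junction reads with Python 3.11.15 and numpy 2.4.6, dividing by the deposited effective lengths. Events averaging 20 or more junction reads a library were tested with a quasi-binomial likelihood-ratio F test in R 4.3.3. The dispersion was moderated across events with limma 3.58.1 (squeezeVar, robust trend, never below 1), and p-values were adjusted by Benjamini-Hochberg over all events of a type and comparison. An event was called at an adjusted p under 0.05 and a PSI change of at least 0.1. A count package was not used because the reads stand as text lists. SE is the standard error of the difference between group means.

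Gene levels were sums of inclusion and skipping reads over the 33107 SE events present in all 3 comparisons, scaled by median-of-ratios size factors, where 2 or more libraries reached a value of 10. They count a read more than once where it serves several events. limma (trend) was fitted on log2(value + 1) with all 4 groups, so log2 changes understate low genes. The difference between states was tested with an interaction term, which for SE events took the third MES control out of the EMT tables. The EPI controls were identical in the EMT and EPI tables for 100% of 44899 SE events, and both MES controls of the MES tables for 100% of 41773.

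Positions of genes, exons and peaks use GRCh37 with a later Gencode release (v44, lifted) than that of the authors, by strand, and sequences come from the GRCh37 genome. No protein sequence was used here.

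The 7 genes, the gene lists (adherens junction, tight junction, desmosome, epithelial, mesenchymal and other cell type markers) and the tests were chosen with earlier results of these data known. Named were the 7 genes, AKAP8 and, per member and comparison, the event with the largest PSI change. Of the called events of a member, some were named and the others were given as counts. Also named were the 4 called genes with the largest change per list and direction, list genes called after knockdown, the 3 genes most like each member, and the strongest peak per gene. Tests were run on simulated data first. Alternatives covered the dispersion model, the test, read minimum, PSI cutoff, size factors, pseudocount, filter, groups in the fit, a replicate block and each library left out.

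Libraries are not numbered in the tables, and their place in the list of a group served as the number. In gene levels, EPI control and EPI KD libraries at the same place deviated together (r = 0.28, 0.58 and 0.49 across 9014 genes), each above 0.1, and were taken as paired. The values given are from the fit without a block, and counts with a replicate block are given where they moved by over 1.5 times. In the EMT comparison r was 0.08, 0.18 and 0.26.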

Additional observations from a re-analysis of the deposited data

Results flagged for a closer look

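One pair of mutually exclusive exons of PKP4, at chr2:159389692-159389828 and chr2:159433783-159433895, went opposite ways after AKAP8 knockdown in the 2 states. The first exon of the pair was used in 40.6%, 42.0% and 42.3% of EPI control and 37.9%, 35.7% and 35.4% of EPI KD (change -5.335 points, adjusted p = 0.787 from the limma-moderated test), with every KD library below every control. In MES it was used in 28.0% and 27.3% of control and 34.3% and 33.8% of KD (change 6.395 points, adjusted p = 0.999), with both KD libraries above both controls. Neither change was called, and the difference between the states was not tested, because the fit across all 4 groups held only SE events. The third MES control, which is in the EMT tables only, had 39.9%, above both MES KD libraries. Groups of 2 or 3 libraries are too small to test for a single deviating library.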

How the results depend on the processing

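The 19 called EMT events of CTNND1 stayed within 17 to 25 under every alternative run: 25 with a PSI cutoff of 0.05 and 18 to 20 with a library left out. With a replicate block there were 17, the calls lost being the 119 nt exon from the donor at 57529591 to the 289 nt exon (67.27 points, adjusted p = 0.0593) and the 289 nt exon from the donor at 57529540 to the 72 nt exon (37.6 points, adjusted p = 0.061). Without EPI control library 2 the first of these lost its call as well (59.34 points). The donor event of 57529540 against 57529518 joined to the 289 nt exon lost its call with limma on the logit of PSI (-33.47 points). The block changed no other call of the 7 genes. PSI deviations at the same place had r of -0.03, 0.01 and -0.02 in EMT, so the place in the list did not pair these libraries. Over all genes and event types the called EMT events numbered 1070, 471 with limma on the logit of PSI, 718 with the replicate block (SE 680 to 230, RI 6 to 55) and 680 to 1257 with a library left out, the lowest without EPI control 1. The 32 called EPI and the 32 called MES knockdown events both became 0 with limma on the logit of PSI, and 42 and 54 with the block. With a library left out they ranged from 18 to 115 in EPI and from 9 to 241 in MES, the highest without KD library 1 of either state. The EPI events of the 7 genes stayed at 0. In MES the count went from 0 to 1 with a PSI cutoff of 0.05 and without MES KD library 2 (range 0 to 1), in both cases by the CTNNB1 acceptor.

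The 3 called EMT gene levels stayed at 3, or 4 with any fold change allowed, by PKP4. Called genes after knockdown in EPI numbered 17 over all genes, 33 with the replicate block, 2 with only the groups compared, 38 without EPI KD library 2, 7 without EPI KD library 1 and 3 without EPI control library 1. Scaling by totals shifted the median EMT change to -0.10 and the median MES knockdown change to -0.13, and changed higher calls from 485 to 393 of 1130 in EMT and from 99 of 205 to 58 of 202 in MES. The AKAP8 call in MES was lost without EPI control 1, MES control 1, MES control 3, MES KD 1 or MES KD 2 (log2 change -1.28 to -0.93).

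The 53 EPI peaks became 48 with a log2 of at least 3 and 43 with a -log10 adjusted p of at least 5, which removed all 4 of CTNNA1, and MES stayed at 0.

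Signs turned only for uncalled values with a library left out. The CTNNB1 acceptor ranged in EMT from -1.825 to 0.3914 points and in the EPI knockdown from -4.265 to 0.6974. Level changes in EPI ranged from -0.2243 to 0.01366 for CTNND1, from -0.0281 to 0.132 for CTNNB1, from -0.01363 to 0.2881 for CTNNA1, from -0.06327 to 0.362 for JUP and from -0.3117 to 0.06666 for OCLN, and in MES from -0.6495 to 0.03749 for JUP. Low reads limit OCLN and CDH1 in MES, and 2 MES KD libraries limit every MES test.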

Other observations

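AKAP8 peaks also lay over other junction genes, in MES as well as in EPI cells. Peaks could be placed for genes of the splicing tables whose symbol has a position in the annotation used, so the genes counted here are not the same as those with a level. Over all 10804 such genes, 18.7% held a peak in EPI and 11.6% in MES. Of 17 such adherens junction genes beside the 7, 4 held 59 peaks in EPI and 6 held 25 in MES, most of them over PTPRF, a receptor phosphatase, with 51 and 14. These are 23.5% and 35.3% of the listed genes. Of 10 such desmosome genes, 6 held 25 peaks in EPI, while in MES PPL (periplakin) alone held 19, against 14 in EPI, which makes 60% and 10% of the listed genes. Of 21 such tight junction genes, 6 held 17 peaks in EPI, and in MES the scaffold gene MAGI1 alone held 2, against 3 in EPI, which makes 28.6% and 4.76%. Whether the lists differ from all genes was not tested. Among the mesenchymal markers, ZEB1, a repressor of CDH1, held 1 peak in EPI and 7 in MES, and the cadherin CDH11 held 5 in MES. GRHL2, an epithelial transcription factor, held 9 in EPI and none in MES. ZEB1 and CDH11 had higher levels in MES and PPL a lower one, and the part of RNA level in these counts was not tested. Each state has 1 merged list, so these counts have no replicate check.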
